A study of Drosophila melanogaster with 9 samples.

Results

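RNA from dissected brains of old flies (60 days, 60d) was compared with that of middle-aged flies (30 days, 30d) to find which transcripts of the Drosophila melanogaster brain differ late in life. The comparison took the 3 arrays labelled 60d and the 3 labelled 30d, 6 of the 9 Affymetrix Drosophila 2.0 arrays of the study, and the 13647 of 18952 probe sets to which the platform annotation gives 1 gene symbol. These probe sets stood for 11982 genes. The other 3 arrays, of flies aged 3 days (3d), were used only to ask whether a late difference was larger than that of the preceding interval. All 3 groups were brains of flies kept at 25 °C on cornmeal molasses agar with yeast and aged without treatment. The labels give no genotype, strain or sex. Nor do they tell how the replicates arose, for example from separate pools of flies, and each p-value below therefore reflects nothing but array-to-array spread, which may be technical.

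The fly brain consists of neurons and several kinds of glia, and a layer of barrier glia separates it from the circulating haemolymph. Head fat body, which makes most secreted antimicrobial peptides and storage proteins, haemocytes, muscle and retina lie next to it, and a dissected brain can carry some of these tissues. The Toll and Imd pathways switch on antimicrobial peptide genes, while the JAK-STAT pathway and stress signals switch on secreted factors such as the Turandot proteins. Transcripts of these pathways are known to accumulate in ageing flies.

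The 60d replicates stood apart from each other more than the 30d replicates did. Values are log2(signal + 1) throughout, arrays of a group are given in the order of replicates 1, 2 and 3, and "SD of the log2 difference" is the spread over the 13647 probe sets of the difference between 2 arrays. This SD was 0.570 between 60d replicates 1 and 2, 0.408 between 1 and 3 and 0.380 between 2 and 3, against 0.287 to 0.303 for the 3 pairs of 30d arrays. The 60d replicate 1 lay far from every 30d array, at 0.615 to 0.623. The 60d replicate 2 lay at 0.324 to 0.344 from the 30d arrays, closer to each of them than to either of the other 60d arrays. The 60d replicate 3 was intermediate, at 0.408 to 0.411. The labels give no reason to leave an array out, so all 3 were kept, and counts of calls are given with and without each array.

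The median SD of a probe set over its 3 replicates was 0.239 at 60d and 0.116 at 30d, a ratio of 2.05, and the SD was larger at 60d for 77.7% of probe sets. At 3d the median SD was 0.257, so the 30d arrays were the closest group. However, 3d replicate 1 stood out in the array's GAPDH control for RNA length. Its log2 ratio of the 3' to the 5' probe set was 5.03, against 1.58 and 2.03 on the other 3d arrays. The 3d SD was not computed without that array, so whether the wide 3d spread rests on it was not tested. The ratio of the 60d to the 30d SD was 1.35 without 60d replicate 1, and 1.54 without 60d replicate 2. Among the 5798 probe sets whose mean at the higher age exceeded the 60th percentile of all values (6.79), called above the level filter here, the medians were 0.191 at 60d and 0.0846 at 30d. The median of these probe sets at 3d was 0.222. Replicates differed by more than 2-fold for 1145 probe sets at 60d and 293 at 30d. Pearson's r between arrays, over all probe sets of 2 libraries and therefore a description only, was 0.961 to 0.980 among the 60d arrays and 0.985 to 0.987 among the 30d arrays. Set against the 30d mean, 60d replicate 1 was at least 2-fold higher for 416 probe sets and lower for 656. The corresponding counts were 78 and 55 for 60d replicate 2, and 130 and 122 for 60d replicate 3. Many of the lower ones were dim, since above the level filter the counts were 246 higher and 32 lower for replicate 1, 29 and 6 for replicate 2, and 84 and 5 for replicate 3. The 60d arrays thus differed from the 30d arrays to unequal degrees, with replicate 1 the most distant.

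**Figure D1:**
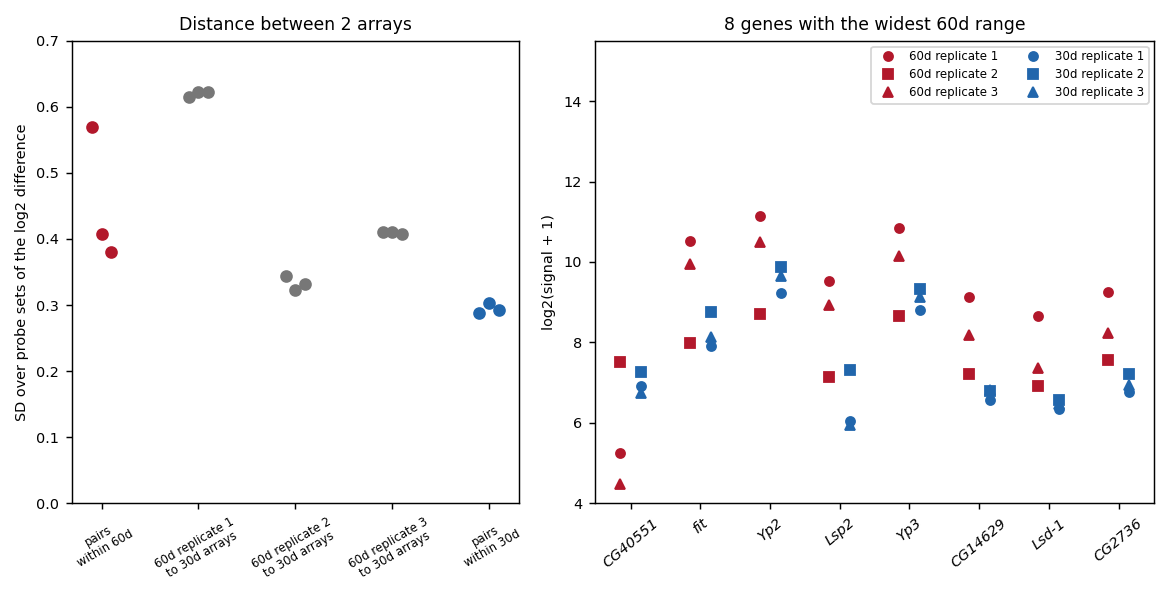
Left, SD over 13647 probe sets of the log2 difference between 2 arrays, each point 1 pair, for pairs within 60d (red), pairs of each 60d replicate with the 30d arrays (grey) and pairs within 30d (blue). Right, log2(signal + 1) on each array for the 8 genes with the widest 60d range, 60d (red) left of 30d (blue). The pairs of 60d replicate 2 with 30d arrays lie at 0.324 to 0.344, below all pairs within 60d.

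Several genes of the fat body were among those that disagreed most within 60d. Among genes above the level filter the 8 widest 60d ranges belonged to CG40551, fit, Yp2, Lsp2, Yp3, CG14629, Lsd-1 and CG2736. Lsp2, a storage protein of the fat body, read 9.52, 7.14 and 8.93 at 60d and 6.04, 7.32 and 5.96 at 30d. The yolk protein gene Yp2 read 11.15, 8.71 and 10.50 at 60d and 9.23, 9.86 and 9.66 at 30d, and Yp3 read 10.83, 8.67 and 10.15 at 60d and 8.80, 9.33 and 9.14 at 30d. In all 3 genes 60d replicates 1 and 3 were high while replicate 2 was within or below the 30d arrays, so the groups overlapped. The female-biased fat body gene fit had the same order, with 10.53, 7.996 and 9.95 at 60d and 7.92, 8.76 and 8.13 at 30d. CG40551 ran the other way, with 5.24, 7.51 and 4.47 at 60d and 6.92, 7.27 and 6.74 at 30d. The yolk protein genes and fit also belong to the list of 26 sex-biased transcripts. The log2 summed signal of that list, which includes them, was 13.65, 12.81 and 13.36 at 60d and 12.85, 13.09 and 13.04 at 30d. The labels give no sex, so the amount of fat body and the share of females on each array cannot be told apart in these genes.

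The log2 summed signal of the 9 fat body markers measured was 13.82, 12.64 and 13.38 at 60d against 12.60, 12.92 and 12.82 at 30d. That of the 6 haemocyte markers was 10.17, 9.25 and 9.52 at 60d against 9.03, 9.14 and 8.94 at 30d, and that of the 7 muscle markers was 10.13, 10.01 and 9.90 at 60d against 9.50, 9.67 and 9.55 at 30d. The fat body sum overlapped between the ages while the haemocyte and muscle sums did not. A sum weighs bright genes most, and the brightest fat body marker was Yp1, with 11.89, 10.97 and 11.65 at 60d and 11.02, 11.43 and 11.37 at 30d. Among single fat body markers 2 of 9, apolpp and Pepck1, were higher without overlap and 0 lower, against 13.4% and 11.9% of all genes. Of the 9 fat body markers 8 were above the level filter, as were 4 of the 6 haemocyte and 5 of the 7 muscle markers. The neuronal markers were at 12.998, 12.81 and 12.85 at 60d against 13.08, 12.91 and 12.91 at 30d, with 8 of 9 above the level filter, which fits the labelled tissue. None of the 4 gut markers was above it, and retina markers were at 12.89, 12.85 and 13.002 at 60d against 13.24, 13.11 and 13.22 at 30d. In bulk tissue fewer cells of a type and less RNA per cell cannot be told apart. The array's own control for RNA length, the log2 ratio of the 3' to the 5' probe set of actin, was 0.45, -0.19 and 0.03 at 60d and -0.65, -0.37 and -0.53 at 30d, without overlap. That of GAPDH did not overlap either, but in the opposite direction, with 1.80, 1.88 and 1.96 at 60d and 2.00, 2.07 and 1.97 at 30d. The other 3 such controls, of eIF-4a, 18S and a second GAPDH set, overlapped between the ages. The 60d arrays had the same order in the actin ratio, the fat body sum and the distance from 30d. The part of tissue makeup, the share of females and RNA quality in the results below was not tested.

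At an adjusted p of 0.05 only 2 of the 13647 probe sets (0.0147%) passed limma's test, and both rose. They measured TotC and CG9826. No probe set fell in this test, although 2355 had an unadjusted p under 0.05, of which 1084 were higher and 1271 lower at 60d. This balance turned with the scaling, to 1264 higher and 1101 lower after quantile normalization and 1332 and 920 after cyclic loess, so it gives no overall direction. TotC, or Turandot C, encodes a secreted protein induced by heat, infection and other stress. It read 11.57, 11.01 and 11.08 at 60d and 6.82, 6.75 and 7.05 at 30d. Every 60d array was thus far above every 30d array, by 4.34 ± 0.18 (SE) on average, or 20.3-fold (adjusted p = 0.000252). TotC passed under all 17 alternatives tried, with a change of 4.17 to 4.45 and adjusted p between 6.22e-08 and 0.00479.

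CG9826, for which no role is given here, read 2.64, 2.82 and 2.97 at 60d and 1.04, 1.22 and 1.18 at 30d, a rise of 1.66 ± 0.14 (adjusted p = 0.0186). Both groups were far under the 60th percentile of 6.79, so this gene was dim at either age. It passed in 6 of the 15 alternatives that tested it, with adjusted p up to 0.225, and it was lost when 60d replicate 3 or any 30d replicate was left out (adjusted p 0.130 to 0.225). Nor did it pass the trended test introduced next (adjusted p = 0.105).

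The number of calls depended on how the spread of each probe set was estimated. limma pulls each probe set's variance towards a prior, which was 1 constant for all probe sets in the test above. Letting the prior follow the mean signal, called the trended test here, gave 93 probe sets (0.681%), of which 89 were higher (0.652%) and 4 lower (0.0293%) at 60d. They stood for 90 genes (0.751% of all genes; 86 higher, 0.718%, and 4 lower, 0.0334%), and the 60d and 30d arrays did not overlap for any of the 93. Of the 89 higher ones 79 were above the level filter, which takes the mean of the higher age. A gene dim at 30d could thus be counted through 60d alone, such as Cyp6g1 with means of 7.39 at 60d and 5.39 at 30d. Leaving out low-signal probe sets had a similar effect on the count, with 47 calls above the 40th percentile and 56 above the 60th. A set of 38 probe sets, all higher at 60d, passed the trended test, both filters and a pseudocount of 16. Both filters kept a probe set when at least 3 arrays exceeded the percentile, so the 60d arrays alone could admit it. Cyp6g1 was in this set, although its 30d arrays read 5.32, 5.52 and 5.33, under the 40th percentile of 5.86. Passing the filters is therefore no separate evidence for a rise. Genes that follow are said to pass the trended test where they did so, and apart from TotC none of them passed with the constant prior. Each SE is that of the test with the constant prior.

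Most trended calls were lost in 1 or more of the refits that left out 1 array, which were added after seeing the data. Each refit also rested on fewer arrays, so less power and the influence of a particular array cannot be told apart. All 93 still passed without 60d replicate 1 or without 60d replicate 2. However, 32 of them passed when 60d replicate 3 was left out. Dropping one 30d array left 19 (replicate 1), 28 (replicate 2) or 20 (replicate 3) of them. A set of 16 passed in all 6 refits: TotC, Diedel, Drs, BomT3, BomBc2, Bbd, IM33, Nepl21, Spn88Eb, Cyp6g1, Tsp42Ed, betaTub60D, bt, CG16713, CG31313 and Phk-3. Each of the others lost its call in 1 or more refits, with adjusted p up to 0.264 (moody). DptB, for example, ranged between 0.00364 and 0.132, Mtk between 0.00406 and 0.201 and Arr1 between 0.0140 and 0.260.

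The number of calls moved as well. Leaving out 60d replicate 2 gave 3423 calls, of which 1541 were higher and 1882 lower, and leaving out 60d replicate 1 gave 195, with 173 higher and 22 lower. Without 60d replicate 3 there were 35, and without 30d replicates 1, 2 or 3 there were 20, 28 and 20. With the constant prior, 1207 probe sets passed without 60d replicate 2, among them 89 of the 93. Of the 89 probe sets that were higher in the trended test, 60d replicate 1 was the farthest from 30d for 86 and 60d replicate 2 the nearest for 67. Their median distance from the 30d mean was 1.54, 0.83 and 1.12 on the 3 arrays of 60d. In these genes replicate 1 of 60d was thus displaced the farthest and replicate 2 the least. The genes were called from these same arrays, so a displacement of all 3 was built into the selection. It does not measure how far the replicates agree.

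**Figure D2:**
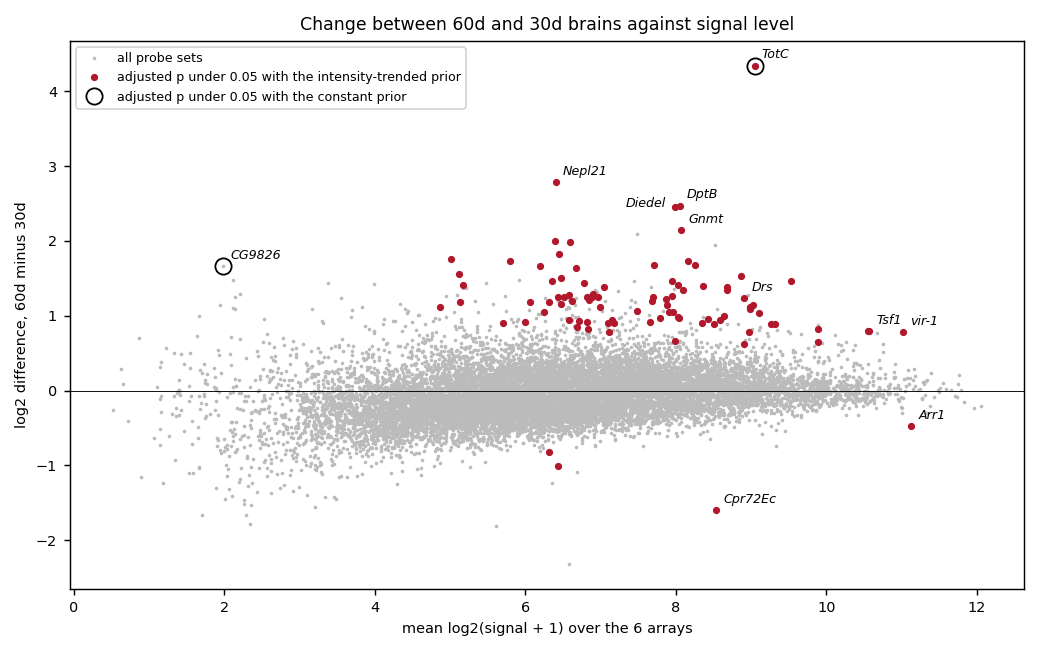
Log2 difference (60d minus 30d) against the mean log2(signal + 1) of the 6 arrays for 13647 probe sets. Red points passed the trended test (93) and open circles the test with the constant prior (TotC at 4.34 and the dim CG9826 at 1.66). Most red points lie above 0, with 89 higher and 4 lower.

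Without any test, 3402 probe sets (24.9%) had arrays that did not overlap between the ages, 1676 higher (12.3%) and 1726 lower (12.6%). Per gene these shares were 13.4% higher and 11.9% lower, and they are the background for the list counts below. The balance depended on signal, since above the level filter 1106 of 5798 probe sets were higher and 576 lower without overlap. The background is thus only rough for lists that lie mostly above or mostly under the filter, and none was matched for signal. An exact permutation test of 3 arrays against 3 cannot go below p = 0.1, so none was used for single genes. Differences of 2-fold or more were 125 higher and 72 lower. Above the level filter they were 81 higher and 5 lower, and 78 and 2 of these had arrays that did not overlap. The filter takes the mean of the higher age, so a gene could pass it through 60d alone. Of the 5432 probe sets whose mean over all 6 arrays exceeded the same level, 57 were at least 2-fold higher and 1 lower. The median difference over all probe sets was -0.07, and it was -0.03 after quantile normalization and -0.01 after cyclic loess.

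The antimicrobial peptide, immune recognition and JAK-STAT lists held 11 of the 90 genes that passed the trended test, and the 36 lists fixed with the design held 29 in all. In the list of 10 JAK-STAT and stress genes 3 passed the trended test: TotC, Diedel and vir-1. Diedel, a small secreted immune regulator, read 10.11, 8.88 and 8.68 at 60d and 6.85, 6.64 and 6.80 at 30d, a difference of 2.46 ± 0.34 (adjusted p = 0.00424 trended, 0.0892 constant). vir-1, a gene induced by virus infection, read 11.74, 11.24 and 11.25 at 60d and 10.71, 10.73 and 10.46 at 30d, higher by 0.78 ± 0.17 (0.0265 trended, 0.201 constant). In both genes each 60d array exceeded each 30d array. The transcription factor Stat92E was 9.69, 9.32 and 9.42 at 60d and 9.18, 9.31 and 9.17 at 30d (0.26 ± 0.14, adjusted p = 0.255 trended). Without overlap 5 of the 10 were higher and 1 lower, and their median was 0.18, against -0.05 over all genes.

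Of the 18 antimicrobial peptide genes measured, 9 were higher and 2 lower without overlap, and 4 passed the trended test, all higher. DptB, an antibacterial diptericin of the Imd pathway, read 9.92, 9.02 and 8.92 at 60d and 5.83, 6.54 and 8.07 at 30d. The 30d arrays themselves spanned more than 2 log2 units in this gene, and the difference was 2.47 ± 0.54 (adjusted p = 0.0313 trended, 0.198 constant). Mtk, or Metchnikowin, had a like pattern with 9.64, 8.72 and 8.71 at 60d and 6.61, 7.13 and 8.14 at 30d (1.73 ± 0.41, adjusted p = 0.0459 trended). Drs, the antifungal Drosomycin and a classical Toll target, varied less, with 9.66, 9.42 and 9.49 at 60d and 8.42, 7.94 and 8.51 at 30d (1.23 ± 0.18, adjusted p = 0.00441 trended, 0.0983 constant). In Drs the 3 arrays of 60d lay within 0.24 of each other, closer than those of 30d. The median over the list was 0.18, with medians against the 30d mean of 0.12, 0.35 and 0.11 on the 60d arrays, while 9 of the 18 were above the level filter. The log2 summed signal of the 18 was 12.173, 11.816 and 11.796 at 60d and 10.876, 11.001 and 11.267 at 30d, highest on replicate 1 and without overlap.

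The Bomanins, short secreted peptides induced by Toll, were grouped with Bombardier (Bbd), a secreted protein needed for their function, after their values had been seen. Of 9 genes 6 were higher and 0 lower without overlap, and 3 passed the trended test. BomT3 read 8.92, 8.80 and 8.48 at 60d and 7.16, 7.45 and 7.37 at 30d (1.41 ± 0.16, adjusted p = 0.00229 trended, 0.0892 constant). BomBc2 read 8.58, 8.18 and 8.21 at 60d and 7.02, 6.98 and 7.21 at 30d (1.25 ± 0.15, 0.00424 trended). Bbd read 10.72, 9.97 and 10.11 at 60d and 8.71, 8.88 and 8.81 at 30d (1.47 ± 0.20, 0.00424 trended). Each 60d array was more than 0.9 above each 30d array in these 3 genes.

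Immune recognition and signalling genes were higher without overlap for 20 of 36 and lower for 1, with a median of 0.28. The members that passed the trended test were NimC1, a phagocytosis receptor of haemocytes (1.64 ± 0.35), IM33, a secreted immune-induced peptide (1.40 ± 0.21), nec, the serpin Necrotic that restrains Toll (1.29 ± 0.23), and SPE, the protease that activates the Toll ligand (1.19 ± 0.26), with trended adjusted p of 0.0335, 0.00521, 0.0184 and 0.0447. The recognition protein gene PGRP-SB1 read 10.32, 8.78 and 9.35 at 60d and 6.63, 7.60 and 8.41 at 30d, but this 1.94 ± 0.51 did not pass (adjusted p = 0.0635 trended). Signal of the receptor Tl was 8.96, 9.17 and 9.10 at 60d and 9.22, 9.20 and 9.24 at 30d (-0.14 ± 0.12). The list's medians against the 30d mean were 0.48, 0.21 and 0.27 on the 60d arrays, which is the order of the haemocyte and fat body marker sums on these arrays. Of 20 haemocyte markers 10 were higher and 0 lower without overlap, with a median of 0.53, and the fat body list had a median of 0.48. Many of these genes are made by fat body and haemocytes, and the part of those tissues in the differences was not tested.

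**Figure D3:**
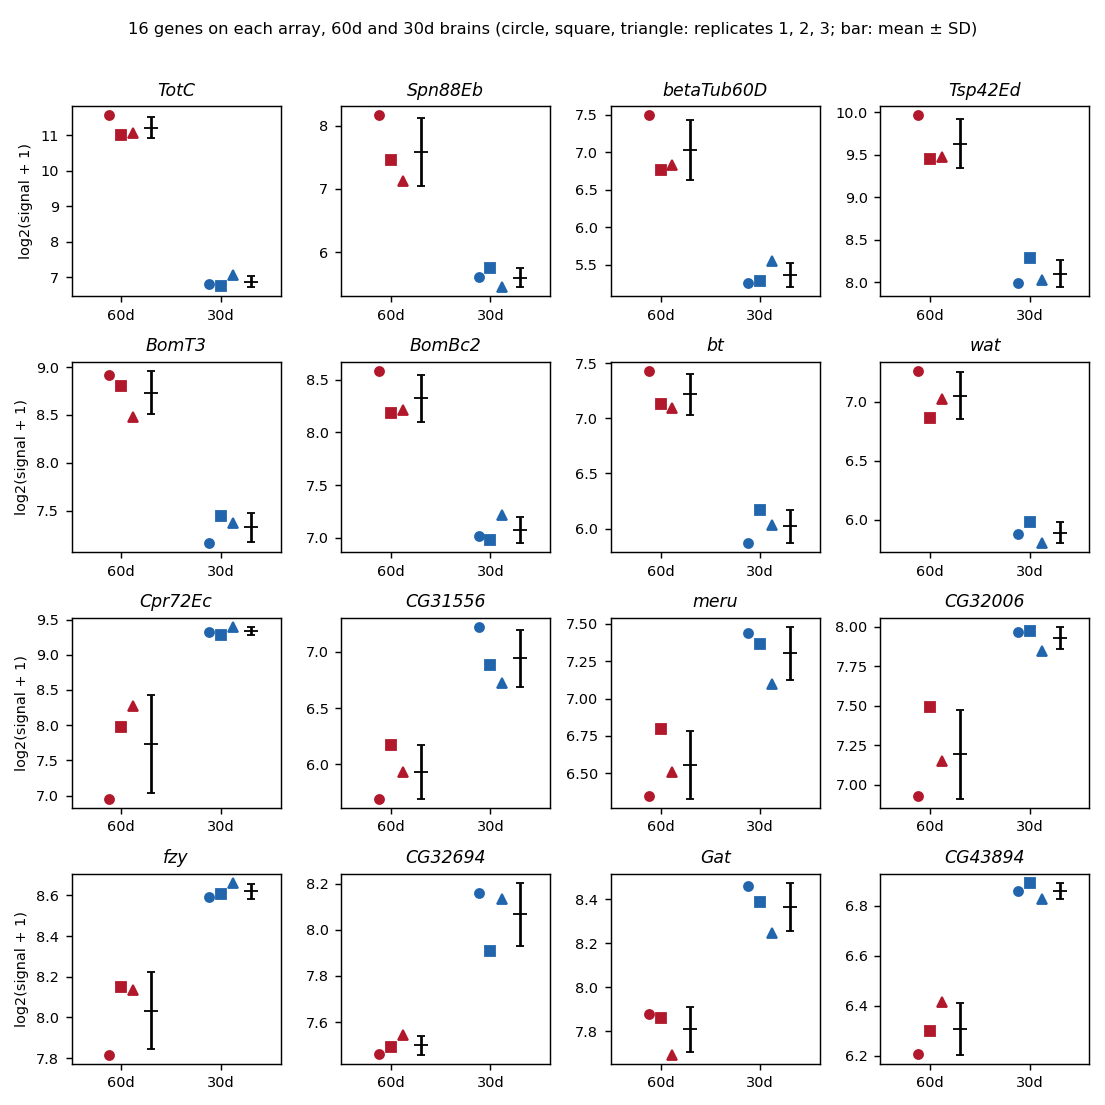
Log2(signal + 1) on each array, 60d (red) left of 30d (blue), for the 8 higher (top rows) and 8 lower genes (bottom rows) chosen by the rule for named genes. Bars give the mean ± SD of 3 arrays. TotC is the only one of the 16 that passed with the constant prior (adjusted p = 0.000252), and replicate 1 of 60d is the farthest from 30d in most panels.

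Among chaperones, which refold damaged proteins, 17 of 29 genes were higher and 1 lower without overlap, with a median of 0.38, and 4 passed the trended test. The small heat shock protein gene l(2)efl read 7.64, 7.19 and 7.52 at 60d and 5.92, 6.47 and 6.32 at 30d (1.21 ± 0.19, adjusted p = 0.0096 trended, 0.111 constant). DnaJ-1, an Hsp40 co-chaperone, read 9.38, 8.72 and 9.32 at 60d and 7.87, 8.23 and 8.34 at 30d (1.00 ± 0.22, 0.0314 trended). CCT4 and CCT5, subunits of the cytosolic chaperonin that folds actin and tubulin, were higher by 0.92 ± 0.15 (0.0184 trended) and 0.94 ± 0.19 (0.0368 trended). In all 4 genes no 60d array fell within the 30d range. Of the 8 chaperonin subunits, grouped after their values had been seen, 7 were higher without overlap and 0 lower, with a median of 0.60. Of 25 genes for folding in the endoplasmic reticulum 11 were higher and 0 lower without overlap, and 0 passed the trended test. Stip1, a co-chaperone that joins Hsp70 and Hsp90, passed it outside these lists, with 8.78, 8.34 and 8.32 at 60d and 6.89, 7.12 and 7.74 at 30d (1.23 ± 0.24, 0.0216 trended).

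The proteasome, which degrades tagged proteins, had 17 of 26 genes higher and 0 lower without overlap, yet none passed either limma test. Its median was 0.35, and the medians on the 60d arrays were 0.61, 0.17 and 0.33. Prosbeta6, a core subunit, had the smallest p with 8.23, 7.61 and 7.81 at 60d and 7.34, 7.13 and 7.26 at 30d (0.64 ± 0.18, adjusted p = 0.0932 trended). The autophagy receptor ref(2)P was at 9.49, 8.86 and 8.98 at 60d and 8.36, 8.54 and 8.63 at 30d (0.60 ± 0.19, adjusted p = 0.106 trended). In the list of 35 autophagy and lysosome genes 10 were higher and 2 lower without overlap, and Npc2b, a sterol-binding protein, passed the trended test (0.88 ± 0.17, 0.0167 trended). Translation factors and tRNA synthetases were higher without overlap for 26 of 75 and lower for 3, and cytoplasmic ribosomal proteins for 13 of 41 and 2, with 0 trended calls in either list. These lists all had their largest median on 60d replicate 1, at 0.39 for translation and 0.38 for ribosomal proteins, against 0.09 on replicate 2 for each.

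Genes of energy metabolism gave no call. Of 66 genes for electron transport and ATP synthase 2 were higher and 2 lower without overlap, against 13.4% and 11.9% of all genes. Their medians against the 30d mean were 0.32, -0.06 and 0.07 on the 60d arrays, so replicates 1 and 2 did not share a sign. Mitochondrial ribosomal proteins had 13 of 69 higher and 4 lower, the tricarboxylic acid cycle 4 of 14 higher and 0 lower, and glycolysis 3 of 12 higher and 0 lower, all without overlap. The glycolytic gene Pgi, with 9.85, 9.15 and 9.30 at 60d and 8.88, 8.79 and 8.89 at 30d, had a difference of 0.58 ± 0.19 (adjusted p = 0.119 trended).

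Enzymes that use S-adenosylmethionine and folate, a list made after their values had been seen, had 8 of 14 members higher and 0 lower without overlap, and 5 passed the trended test. Gnmt, which spends S-adenosylmethionine to methylate glycine, read 9.97, 8.59 and 8.89 at 60d and 6.86, 7.31 and 6.84 at 30d. Each 60d array was above each 30d array, by 2.15 ± 0.34 on average (adjusted p = 0.0058 trended, 0.111 constant). Sardh, which breaks down the sarcosine that Gnmt makes, was higher by 1.76 ± 0.25 (0.00863 trended) at signals under the level filter, with 6.39, 5.38 and 5.90 at 60d and 4.03, 4.31 and 4.05 at 30d. Ahcy, which clears S-adenosylhomocysteine, was higher by 1.25 ± 0.28 (0.0464 trended). The folate enzyme gene pug and the purine synthesis gene Gart were higher by 1.25 ± 0.27 and 1.18 ± 0.24 (0.0412 trended for each). Gnmt is also among the 22 fat body markers, of which 8 were higher and 0 lower without overlap and of which it alone passed the trended test.

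Detoxification genes were mixed. Of 81 cytochrome P450 genes 19 were higher and 8 lower without overlap, and Cyp6g1, known for its part in insecticide resistance, alone passed the trended test. It read 8.04, 6.95 and 7.17 at 60d and 5.32, 5.52 and 5.33 at 30d (2.00 ± 0.27, adjusted p = 0.00441 trended, 0.0892 constant). Glutathione transferases and antioxidants were higher for 20 of 55 and lower for 2, and GstT4, GstE6, GstD1 and GstD2 passed with differences of 1.14 ± 0.18, 0.98 ± 0.16, 0.82 ± 0.14 and 0.78 ± 0.12. GstD1 read 10.52, 10.12 and 10.26 at 60d and 9.48, 9.49 and 9.49 at 30d (0.00652 trended). GstE7 was lower without overlap, at 6.87, 6.77 and 6.99 at 60d and 7.04, 7.29 and 7.14 at 30d (-0.28 ± 0.13, 0.274 trended).

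Peptidases and their inhibitors held some of the widest differences. Nepl21, of the neprilysin-like metallopeptidases that cleave signalling peptides, read 8.55, 7.05 and 7.80 at 60d and 5.03, 5.40 and 4.61 at 30d (2.79 ± 0.37, adjusted p = 0.00424 trended, 0.0892 constant). The serpin gene Spn88Eb, whose product belongs to a family of protease inhibitors, read 8.17, 7.45 and 7.12 at 60d and 5.61, 5.74 and 5.44 at 30d (1.98 ± 0.26, 0.00424 trended). Among genes with no role given here, CG16713 read 8.94, 8.02 and 8.68 at 60d and 6.60, 6.87 and 7.15 at 30d (1.67 ± 0.25, 0.00521 trended). Over both families, listed after their values had been seen, 8 of 26 neprilysin-like genes were higher and 2 lower without overlap, and 11 of 28 serpin genes were higher and 3 lower. All 6 imaginal disc growth factor genes, which encode secreted chitinase-like proteins, were higher without overlap, and Idgf1 passed the trended test (1.27 ± 0.26, 0.0278 trended).

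Muscle genes gave 3 trended calls although the list as a whole was level. Mp20, Mlp60A and bt encode muscle proteins, the last being projectin of the sarcomere. Mp20 read 8.09, 7.08 and 6.91 at 60d and 5.40, 5.83 and 5.39 at 30d (1.83 ± 0.31, adjusted p = 0.0107 trended). Mlp60A was higher by 1.47 ± 0.22 (0.00819 trended) and bt by 1.20 ± 0.15 (0.00521 trended, 0.0892 constant). The mesodermal tubulin gene betaTub60D read 7.50, 6.76 and 6.83 at 60d and 5.25, 5.29 and 5.56 at 30d (1.66 ± 0.21, 0.00441 trended). Over 25 muscle markers 5 were higher and 2 lower without overlap, with a median of 0.02. The log2 summed signal of the 25 was 13.014, 13.078 and 12.944 at 60d and 13.028, 13.025 and 13.046 at 30d and overlapped, unlike that of the 7 markers given above, and whether muscle adhered to the brains was not tested.

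Glial genes included members in both directions. Of 31 genes 11 were higher and 1 lower without overlap, with a median of 0.18. moody, a receptor of the barrier glia, read 8.54, 8.14 and 8.27 at 60d and 7.73, 7.64 and 7.58 at 30d (0.67 ± 0.14, adjusted p = 0.0446 trended, 0.198 constant). Gli, or Gliotactin, of glial septate junctions was at 8.12, 7.58 and 8.14 at 60d and 7.19, 7.32 and 7.25 at 30d (0.69 ± 0.17, 0.0729 trended). Gat, which takes up GABA into astrocyte-like glia, was the member that was lower, with 7.88, 7.86 and 7.69 at 60d and 8.46, 8.39 and 8.25 at 30d (-0.56 ± 0.13, adjusted p = 0.0605 trended, 0.202 constant). Its 60d arrays lay within 0.19 of each other and all below the 30d arrays.

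**Figure D4:**
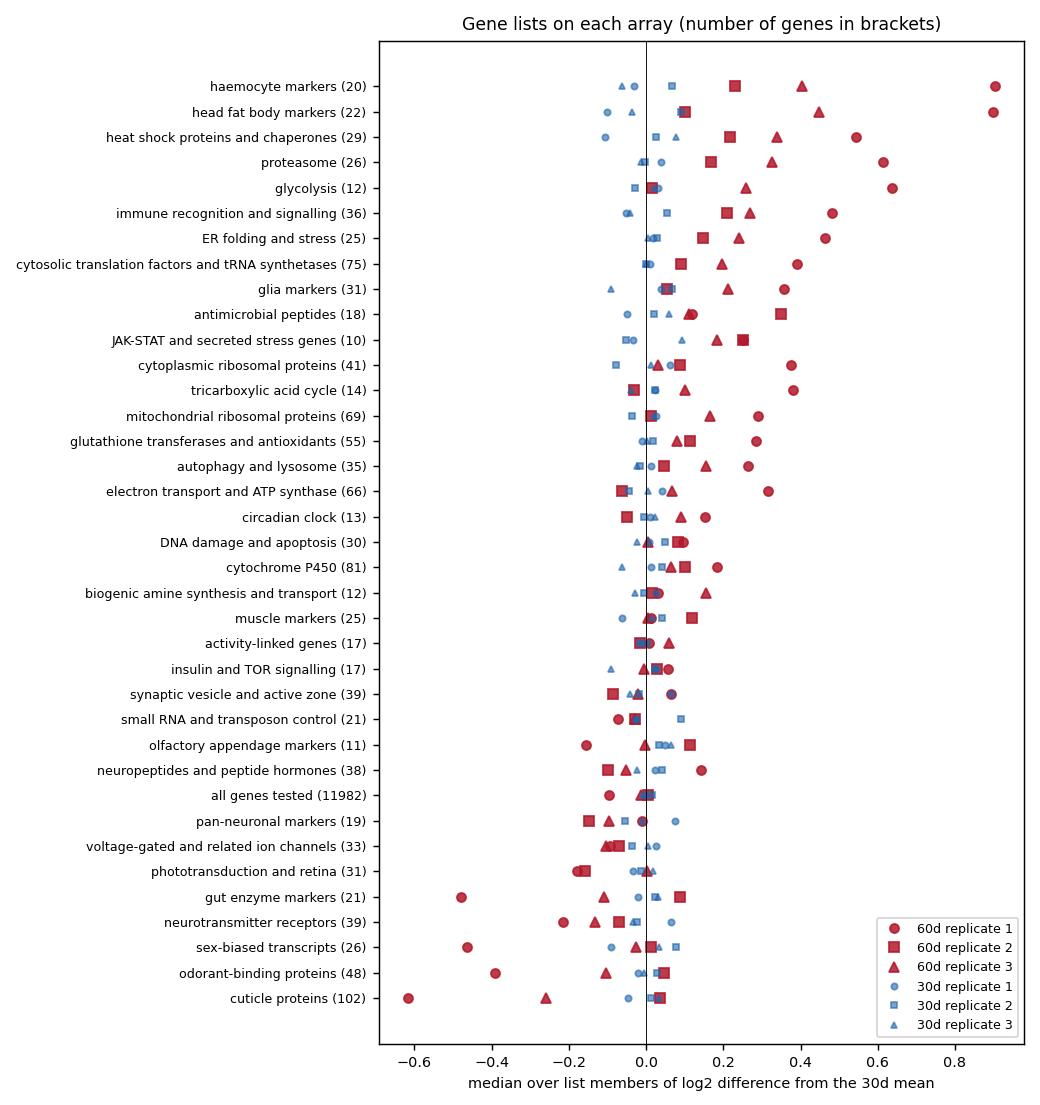
Median over the genes of each list of the log2 difference from the 30d mean, on each 60d array (red) and each 30d array (blue, small), with the number of genes in brackets. The 60d replicate 1 is farthest to the right for fat body markers (0.90), haemocyte markers (0.90) and the proteasome (0.61) and farthest to the left for cuticle proteins (-0.62), whereas the median of all genes lies between -0.10 and 0.00 on the 60d arrays.

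Neuronal lists showed small differences and no trended call, apart from the activity-linked genes. Of 39 neurotransmitter receptor genes 9 were lower and 1 higher without overlap, with a median of -0.13, against backgrounds of 11.9% and 13.4%. The nicotinic receptor subunit nAChRalpha5 was 6.96, 6.92 and 6.97 at 60d and 7.30, 7.21 and 7.22 at 30d (-0.29 ± 0.11, adjusted p = 0.228 trended). The serotonin receptor 5-HT1A was 8.44, 8.81 and 8.60 at 60d and 8.98, 8.94 and 8.85 at 30d (-0.30 ± 0.14, 0.21 trended). The member that was higher was nAChRbeta3, at 6.69, 5.18 and 5.72 at 60d and 4.68, 4.22 and 4.58 at 30d (1.37 ± 0.35, 0.0766 trended). Ion channels had 4 of 33 lower and 1 higher, synaptic vesicle and active zone genes 4 of 39 lower and 2 higher, neuropeptides 4 of 38 lower and 3 higher, and pan-neuronal markers 2 of 19 lower and 0 higher. These shares were near or below those of all genes. In the list of 17 activity-linked genes, 4 higher and 1 lower without overlap, Arc1, which encodes a capsid-forming protein of neurons, passed the trended test with 11.28, 10.84 and 10.76 at 60d and 10.11, 10.11 and 10.27 at 30d (0.80 ± 0.17, 0.0184 trended).

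Lower signal at 60d passed the trended test for 4 genes: Cpr72Ec, CG31556, CG12483 and Arr1. Cpr72Ec, a cuticle protein gene, read 6.95, 7.98 and 8.27 at 60d and 9.32, 9.29 and 9.40 at 30d. Its 60d arrays spanned 1.32 while the 30d arrays were nearly equal, and the difference was -1.60 ± 0.31 (adjusted p = 0.0184 trended, 0.178 constant). CG31556 read 5.69, 6.17 and 5.93 at 60d and 7.22, 6.88 and 6.73 at 30d (-1.01 ± 0.18, 0.0278 trended). CG12483 was lower by a log2 difference of -0.82 ± 0.15 (0.0446 trended). Arr1, the arrestin that ends the light response of photoreceptors, read 10.90, 10.73 and 11.05 at 60d and 11.45, 11.34 and 11.34 at 30d (-0.48 ± 0.13, adjusted p = 0.0488 trended, 0.216 constant).

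Of 31 phototransduction and retina genes, Arr1 among them, 8 were lower and 0 higher without overlap, with a median of -0.11. The light-activated channel gene trpl read 8.67, 8.59 and 9.61 at 60d and 9.71, 9.74 and 9.64 at 30d (-0.74 ± 0.26, 0.138 trended). In trpl replicates 1 and 2 of 60d were low while replicate 3 lay just under the 30d arrays. How much retina stayed on each dissected brain was not tested. Of 102 cuticle protein genes 21 were lower and 2 higher without overlap, but only 26 of the 102 were above the level filter. Their medians of -0.62, 0.04 and -0.26 on the 60d arrays show that replicate 2 did not share the direction. Odorant-binding proteins had 4 of 48 lower and 3 higher, with medians of -0.39, 0.05 and -0.10.

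To ask which genes moved only in the late interval, the change from 30d to 60d was set against that from 3d to 30d on all 9 arrays. The intervals share the 30d arrays, which enter them with opposite sign. A late-only gene had to pass for 60d against 30d, differ between intervals at an adjusted p of 0.05, miss that threshold for 30d against 3d, and have an early change under 1/3 of the late one. With the constant prior 0 of 13647 probe sets met all conditions, and with unadjusted p under 0.05 in their place 101 did, 92 higher and 9 lower. The trended test gave 21 probe sets (0.154%), 20 higher and 1 lower. Their adjusted p for the difference between intervals was 0.0329 to 0.0462 trended and 0.0615 to 0.0756 constant. The count changed when 1 array was left out: it was 4 without 60d replicate 1, 155 without 60d replicate 2, 0 without 60d replicate 3 or any 1 of the 30d replicates, and 36 without 3d replicate 1. The last of these arrays stood out in the GAPDH control, with a log2 3' to 5' ratio of 5.03, against 1.58 and 2.03 on the other 3d arrays.

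The late-only genes of the trended test included immune factors whose early change did not pass. Diedel averaged 6.37, 6.76 and 9.22 at 3d, 30d and 60d, Drs 8.38, 8.29 and 9.52, and Bbd 8.97, 8.80 and 10.27. The excess of the late over the early change was 2.06 ± 0.59 for Diedel, 1.32 ± 0.34 for Drs and 1.64 ± 0.35 for Bbd. The clotting gene fon averaged 7.60, 7.22 and 8.68. The list also held Nepl21, with means of 5.50, 5.01 and 7.80, and the serpin genes Spn88Eb, with 5.18, 5.60 and 7.58, and Spn88Ea, with 7.41, 7.31 and 8.28. For Nepl21 the excess was the widest at 3.27 ± 0.72 (adjusted p = 0.034 trended, 0.0615 constant).

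Others on it were Cyp6g1, with means of 5.59, 5.39 and 7.39 at 3d, 30d and 60d, GstD1 with 9.69, 9.48 and 10.30, CCT4 with 6.64, 6.35 and 7.27, and the muscle genes Mp20, with 5.44, 5.54 and 7.36, and Mlp60A, with 5.54, 5.62 and 7.09. betaTub60D averaged 5.42, 5.37 and 7.03. In each of these the 3d and 30d means lay within 0.3 of each other. The sole late-only gene with lower signal at 60d was CG31556, with 6.68, 6.94 and 5.93.

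Some of the largest late differences were not late-only, because the gene also differed between 3d and 30d. TotC averaged 5.46, 6.87 and 11.22, an early change of 1.42 ± 0.30 (adjusted p = 0.013 on 9 arrays) before the late one of 4.34. The excess of the late change in TotC was 2.93 ± 0.52 (adjusted p = 0.0317 trended, 0.0615 constant). Gnmt averaged 5.57, 7.0 and 9.15, with an early change of 1.43 ± 0.40, and the 2 intervals differed by 0.72 ± 0.69 (0.38 trended). The tetraspanin gene Tsp42Ed had similar steps, with means of 6.36, 8.10 and 9.63 and a difference between intervals of -0.21 ± 0.34 (0.623 trended). The early change had the opposite sign in the late-only genes Bbd, Drs, fon, Nepl21, Spn88Ea, Cyp6g1, GstD1, CCT4, betaTub60D and CG31556. In the late-only genes Diedel, Spn88Eb, Mp20 and Mlp60A it had the same sign. Opposite signs were also seen in genes that were not late-only. BomT3 averaged 7.77, 7.33 and 8.73, BomBc2 7.74, 7.07 and 8.32, l(2)efl 6.86, 6.24 and 7.45, and Cpr72Ec 7.91, 9.33 and 7.73. Wherever the signs were opposite, the 30d mean was the lowest or the highest of the 3 ages, and the 30d arrays enter both intervals.

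**Figure D5:**
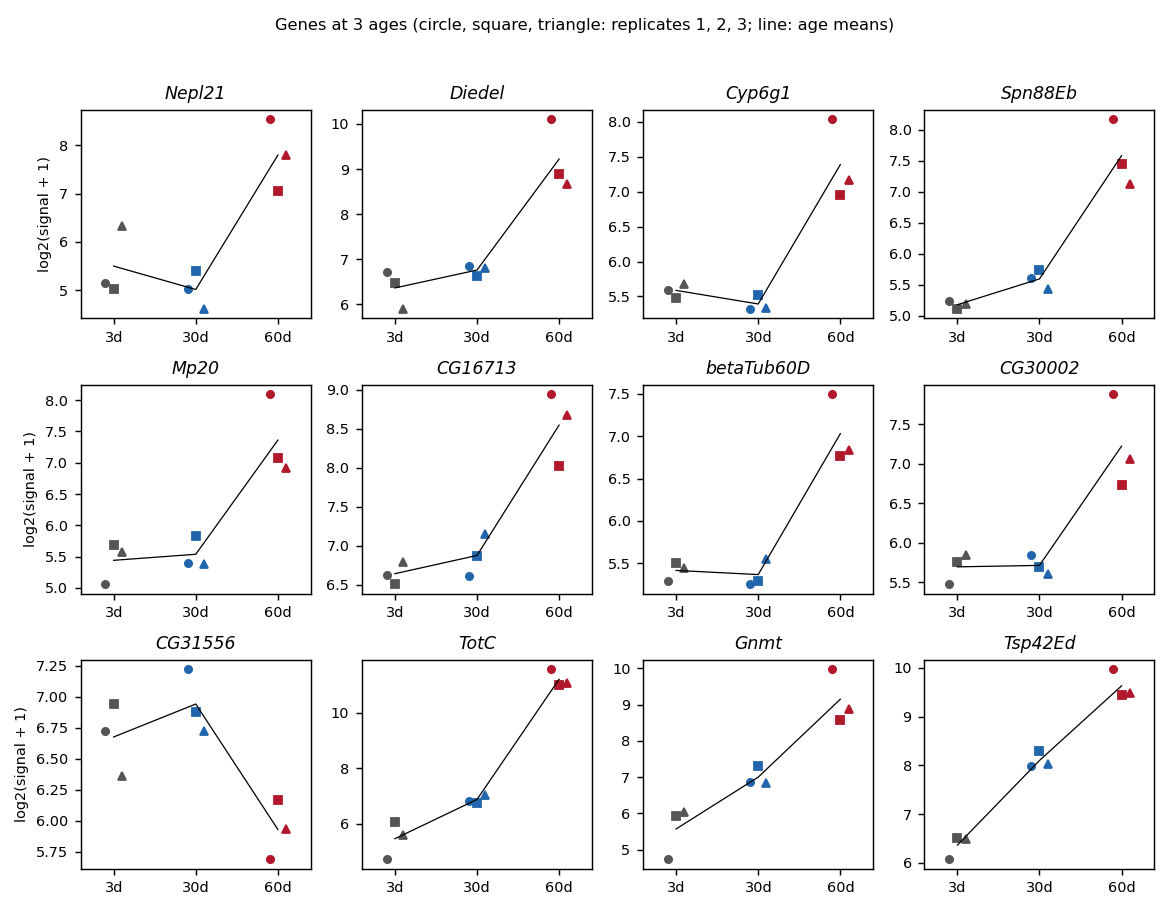
Log2(signal + 1) on each array at 3d, 30d and 60d, with lines through the age means. The first 8 panels and CG31556 met the late-only conditions of the trended test, while TotC (means 5.46, 6.87 and 11.22), Gnmt and Tsp42Ed also differed between 3d and 30d.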

How the data were processed

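The deposited table gives 1 linear signal intensity per probe set and array. GCRMA and MAS5 are named, with neither role nor version, in the submitters' processing notes. Each array's trimmed mean (2% off each end) was 150.002 in the deposited intensity values, which were analysed as log2(signal + 1) without further normalization. Median intensity was 66.5 to 77.0 at 60d and 76.1 to 78.3 at 30d, and precision is limited by the number of arrays. Symbols came from the platform annotation. The 183 control probe sets, 402 with several symbols and 4720 with none were left out. Lists used the probe set with the highest mean for each of 1094 genes with several.

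limma 3.58.1 in R 4.3.3 was fitted to the 6 arrays (4 residual degrees of freedom, two-sided, Benjamini-Hochberg adjustment over 13647 probe sets). The prior had 3.65 degrees of freedom, or 7.48 with a trend. The difference between intervals used all 9 arrays. On 5 simulated draws with 200 changed probe sets each, the constant prior recovered 65.6% of 2-fold and 94.6% of 4-fold changes with 5.09% false calls. The trend recovered 64.4% and 93% with 3.55% false calls.

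The comparison, the 36 lists (1207 members matched, 192 not) and the tests were chosen with earlier results of these data known, and 6 further lists after the values were seen. Named genes were up to 15 changes per direction that passed with no overlap and above the 60th percentile, filled up to 8 by smallest p, then up to 3 called members per list or the one with the smallest p, up to 8 late-only genes per direction and the 8 widest 60d ranges. Genes named because they passed the trended test or did not overlap were added after their values were seen. Same-numbered 60d and 30d arrays deviated together with r of 0.066, 0.055 and 0.030, so replicate numbers were not taken to pair them.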

Additional observations from a re-analysis of the deposited data

Results flagged for a closer look

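Of the 5122 probe sets with several or no gene symbols, which the comparison did not use, 4 passed limma's test with the constant prior (0.0781%) and 26 with the trended prior (0.508%), all higher at 60d. They drew attention as signal outside the probe sets compared, and they cannot be assigned to 1 gene here.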

How the results depend on the processing

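TotC kept its direction and its side of the threshold under all 17 alternatives. The count of 2 probe sets was the same under quantile normalization, median centring, cyclic loess and 1 probe set per gene. The trended calls and the overlap of arrays were taken from values without further normalization. Neither was recomputed after one, so their dependence on scaling was not tested. It was 69 with a pseudocount of 16, 47 and 56 with filters at the 40th and 60th percentiles, 93 with the trended prior, 1 with array weights (whose fit did not converge) and 20 with all 9 arrays in the fit. With the replicate number as a block it was 1, although each 60d array correlated best, if weakly, with the 30d array of its own number. Leaving out 1 array gave 1 to 1207. Late-only probe sets numbered 23 with the pseudocount of 16, 17 and 15 with the filters and 21 with the trended prior. They numbered 0 to 125 when 1 array was left out, and 0 under the other settings. The trended calls ran between 20 and 3423 and the trended late-only calls between 0 and 155 when 1 array was left out, an alternative added after seeing the data. Without 3d replicate 1 there were 36 trended late-only calls. The ratio of the 60d to the 30d SD was 1.35 to 2.70 over the arrays left out. The cause of these shifts was not tested. No called gene reversed its sign. The median over all probe sets was -0.07 but 0.02 with the filter at the 60th percentile, and 12 of 42 list medians, none beyond 0.21 in size as reported, changed sign in 1 or more settings. At 3 arrays per age 65.6% of simulated 2-fold changes passed with the constant prior. The simulated noise was independent and equal at both ages, so the real share may be another, and a gene that did not pass may still differ.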

Other observations

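Some further genes passed the trended test without belonging to any list, and those named here were chosen after their values had been seen. The heat-sensing channel genes pain and pyx, both of the TRPA family, differed by 0.83 ± 0.16 and 1.25 ± 0.27 (trended adjusted p = 0.0368 and 0.0412). pain read 7.36, 7.19 and 7.18 at 60d and 6.33, 6.70 and 6.22 at 30d, with the 60d arrays close together. Lst, which encodes the peptide hormone limostatin, read 8.86, 7.73 and 8.25 at 60d and 6.83, 7.23 and 7.20 at 30d (1.19 ± 0.28, trended adjusted p = 0.0478). The iron carrier gene Tsf1 read 11.37, 10.84 and 10.69 at 60d and 10.24, 10.10 and 10.19 at 30d (0.79 ± 0.19, trended adjusted p = 0.0368).

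For the lists not described above, counts without overlap stand beside 13.4% higher and 11.9% lower over all genes. Shares above these are given in brackets. Clock genes had 1 of 13 higher and 1 lower, insulin and TOR signalling 1 of 17 higher and 0 lower, and biogenic amine genes 2 of 12 higher (16.7%) and 1 lower. DNA damage and apoptosis had 6 of 30 higher (20%) and 2 lower, and small RNA control 0 of 21 higher and 4 lower (19.0%). Olfactory appendage markers had 2 of 11 higher (18.2%) and 1 lower. Gut enzymes had 1 of 21 higher and 1 lower, and sex-biased transcripts 0 of 26 higher and 3 lower. None of these members passed either limma test.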
